A study of Drosophila melanogaster with 6 samples.

Results

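The proteasome subunit genes were followed on Affymetrix arrays of RNA from heads of Drosophila melanogaster males, 5 days old as adults. These arrays read each transcript through a set of short probes (a probe set). Members were the probe sets whose annotation gives a single gene symbol beginning with Prosalpha, Prosbeta, Rpn or Rpt and a digit, with 1 probe set per gene. This gave 40 genes out of 11982 genes that have a probe set with 1 symbol. The rule uses symbols and no measured values, though it was drawn up with earlier results of these data known. Each member had only 1 such probe set. Of the 40, 26 were the standard subunits (12 of the core and 14 of the regulatory particle), and 14 were paralogs, whose symbols end in T or R with or without a further digit. The gene table used for names lists 32 standard and 16 paralog symbols of this form, and the remaining genes were not analysed here. 1 probe set that lists several symbols was left out.

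The study had 3 groups of 2 arrays, labelled as biological replicates. Mutant flies were homozygous dme-miR-14 mutants, which lack a normal copy of this microRNA gene. Rescue flies carried the same homozygous mutation and also expressed dme-miR-14 in the insulin-producing cells, neurosecretory neurons of the brain that release insulin-like peptides. Control flies were labelled wild-type. The driver of the rescue transgene, the mutant allele and the number of flies per RNA sample are not given in the sources used here, and the p-values measure only the spread between these samples. All flies were reared in similar growth and feeding conditions, and the study looked for genes that are up in the mutant and return toward control, or below it, in the rescue.

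The proteasome is the large protease that breaks down proteins tagged with ubiquitin in the cytosol and nucleus. Its core particle is a barrel of stacked rings. The outer rings are built of alpha subunits, which gate the entrance, and the inner rings of beta subunits, some of which carry the proteolytic sites. The regulatory particle caps the barrel. Its base holds a ring of ATPases (Rpt) that unfold the substrate, together with large scaffold and ubiquitin-binding subunits (Rpn1, Rpn2, Rpn13), and its lid holds the remaining Rpn subunits, among them the enzyme that removes ubiquitin. Since these subunits are needed together, their genes are known to be expressed together in many organisms, and in neurons the proteasome is needed for protein turnover at synapses.

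Values are intensities as deposited by the authors, on a linear scale after RMA, a method that corrects background, equalises the distribution of values between arrays and summarises the probes of a set. Differences are on the log2 scale, tested with limma over 18769 probe sets (all 6 arrays in the fit, two-sided, Benjamini-Hochberg adjustment within each comparison, threshold 0.05), and ± is the standard error (SE) of that fit. The standard subunits read between 330.3 and 1303.7 and the paralogs between 10.1 and 63.7 over the 6 arrays. Intensities of different probe sets depend on their probes and were not compared as amounts. RNA quality, judged by dividing the 5' by the 3' signal of actin control probe sets, gave 0.205 and 0.335 on the mutant arrays, 0.370 and 0.450 on the rescue arrays, and 0.306 and 0.138 on the control arrays. For GAPDH the ratios were 0.397 and 0.460 in mutant, 0.474 and 0.514 in rescue, and 0.434 and 0.281 in control. Control replicate 2 was the lowest array on both ratios. It also differed from control replicate 1 in the standard subunits, of which 23 of 26 read higher on control replicate 1 (median difference 0.15), against 46.1% of all probe sets.

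The first question is how subunit transcripts differ in heads that carry the miR-14 mutation. Most standard subunits read moderately higher in mutant heads. Of the 26, 25 had an estimate above 0, with a median log2 difference of 0.33 and a range of -0.12 to 0.55. Over all probe sets 43% had an estimate above 0, with a median of -0.03. Over the 9385 probe sets at or above the median level, where all the standard subunits lie, 57.4% did, with a median of 0.04. In 24 of the 26 both mutant arrays were above both control arrays, against 23.9% of all probe sets and 37.6% of those at or above the median level.

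**Figure D1:**
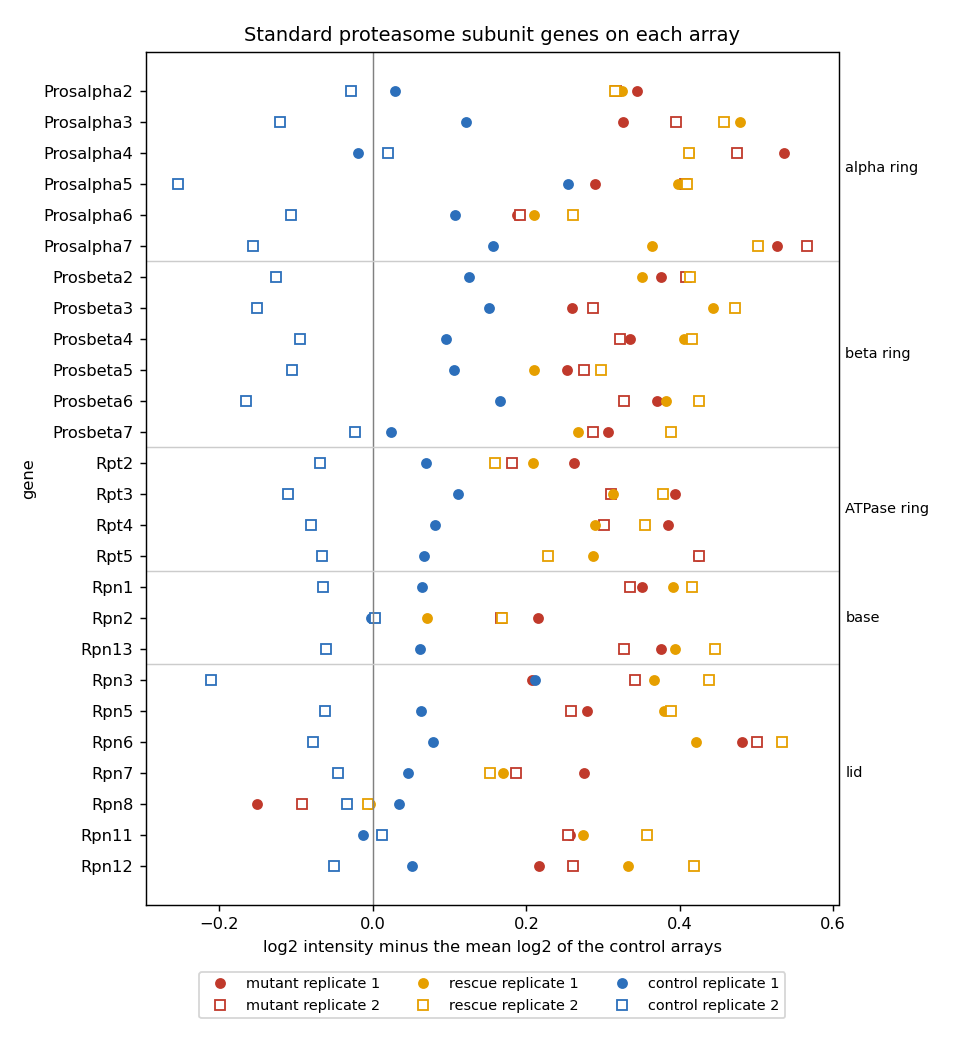
Log2 intensity of the 26 standard subunit genes on each array, minus the mean log2 intensity of the control arrays, with genes down the page by ring or subcomplex and 1 point per array. For 24 genes both mutant and both rescue points lie to the right of both control points, and the exceptions are Rpn8 and Rpn3.

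Past the adjusted threshold, 7 of the 40 members rose and 1 fell in mutant against control heads. The background share is 6.88% of all probe sets called higher and 3.88% called lower. Among the probe sets at or above the median level, tested alone, 14.6% were higher, and 15 of the 26 standard subunits were. The members that rose were Prosalpha2, Prosalpha4, Prosalpha7, Rpt5, Rpn1, Rpn13 and Rpn6, all standard subunits, with differences from 0.33 to 0.55. The member that fell was the paralog Prosalpha4T1. By unadjusted p under 0.05, 22 standard subunits were higher and none lower (limma), where 13.7% of all probe sets and 23.6% of those at or above the median level were higher. Of the paralogs, 2 were lower on that count, where 13.4% of all probe sets were.

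The number of calls, among the members and over all probe sets, changed with single arrays. No member passed once mutant replicate 1 was left out, and the 7 genes then had adjusted p from 0.0721 to 0.184, where 2.17% of all probe sets were higher. Leaving out mutant replicate 2 also left none (from 0.0535 to 0.179 for the same 7), where 2.24% of all probe sets were higher. Without control replicate 2, 2 members rose, Prosalpha4 and Rpn6, and 1 paralog fell, and the share that rose is close to the 5.49% of all probe sets higher in that fit. The same 2 were the only ones to rise without either rescue array, where 3.81% of all probe sets were higher. Without control replicate 1, 18 rose and 3 fell, where 11.5% of all probe sets were higher. With mutant and rescue arrays taken as 1 group of 4 against control, an alternative added after seeing the data, 14 rose, where 5.98% of all probe sets were higher. The median difference of the standard subunits was 0.42 without control replicate 1, 0.24 without control replicate 2, 0.31 without mutant replicate 1 and 0.32 without mutant replicate 2.

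In the alpha ring, which gates the core, all 6 measured standard subunits read higher on both mutant arrays than on both control arrays, and 3 passed the test. Over all probe sets 23.9% read so and 6.88% passed as higher. Among those at or above the median level 37.6% read so and, tested alone, 14.6% passed. The counts of the following rings and subcomplexes are to be read beside these shares. Prosalpha4 had 533.6 and 511.2 in mutant, 489.7 and 489.8 in rescue, and 363.2 and 373.0 in control heads. Its mutant values were 1.42-fold above control (log2 difference 0.50 ± 0.074, limma adjusted p = 0.00781), and its control arrays differed little from each other. Prosalpha7 had 720.9 and 740.9 in mutant, 644.2 and 709.0 in rescue, and 558.0 and 449.0 in control heads (mutant against control 0.55 ± 0.12, adjusted p = 0.0292). This was the largest mutant difference among the standard subunits, measured against control arrays that were far apart. Prosalpha2 had 884.5 and 867.8 in mutant, 872.1 and 866.7 in rescue, and 710.5 and 682.8 in control heads, so that mutant and rescue arrays overlapped and stood above control (0.33 ± 0.074, adjusted p = 0.0341).

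The other alpha subunits did not pass in the mutant. Prosalpha3 had 598.6 and 628.1 in mutant, 665.2 and 656.0 in rescue, and 519.7 and 439.0 in control heads. The rescue arrays were the highest, and Prosalpha3 passed in rescue against control only (0.47 ± 0.099, adjusted p = 0.0271). Prosalpha5 had 656.9 and 712.4 in mutant, 707.8 and 714.1 in rescue, and 641.1 and 450.6 in control heads. Its mutant difference of 0.35 ± 0.16 (adjusted p = 0.208) was 0.09 without control replicate 2. Prosalpha6 had 550.1 and 551.6 in mutant, 558.7 and 578.4 in rescue, and 519.9 and 448.5 in control heads, with no overlap between mutant and control (0.19 ± 0.093, adjusted p = 0.238).

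In the beta ring the 6 measured subunits had mutant differences from 0.26 to 0.39, none past the threshold (limma, adjusted p from 0.0526 to 0.162), though all 6 had an unadjusted p under 0.05. On that count 13.7% of all probe sets and 23.6% of those at or above the median level were higher. Prosbeta2, one of the proteolytic subunits, had 900.8 and 921.3 in mutant, 885.7 and 925.0 in rescue, and 757.8 and 636.5 in control heads (mutant against control 0.39 ± 0.10, adjusted p = 0.0526). Prosbeta5, also proteolytic, had 1086.8 and 1103.5 in mutant, 1054.9 and 1120.6 in rescue, and 981.2 and 847.6 in control heads. Mutant and rescue arrays overlapped for both genes, and both control arrays were lower. Prosbeta3, Prosbeta4 and Prosbeta7, which have no proteolytic site, passed in rescue against control. Prosbeta3 had 1042.4 and 1062.9 in mutant, 1183.7 and 1207.4 in rescue, and 967.0 and 784.4 in control heads (rescue against control 0.46 ± 0.11, adjusted p = 0.0396). Prosbeta4 had 783.9 and 776.2 in mutant, 822.4 and 829.0 in rescue, and 663.6 and 581.4 in control heads. Prosbeta7 had 1231.4 and 1214.8 in mutant, 1198.3 and 1303.7 in rescue, and 1011.9 and 979.8 in control heads. For Prosbeta3 and Prosbeta4 the rescue arrays were above the mutant arrays, while for Prosbeta7 they overlapped. Prosbeta6 had 767.4 and 745.4 in mutant, 774.1 and 797.2 in rescue, and 666.2 and 529.4 in control heads, and passed in neither comparison.

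The 4 measured ATPases of the regulatory particle were higher on both mutant arrays than on both control arrays, and only Rpt5 of these 4 passed. Rpt5 had 920.8 and 921.0 in mutant, 837.5 and 804.2 in rescue, and 718.4 and 655.6 in control heads (mutant against control 0.42 ± 0.082, adjusted p = 0.0202). Its rescue arrays lay between those of the other groups without overlap, and the rescue difference from mutant was -0.17 ± 0.082 (adjusted p = 0.454). Rpt3 had 713.7 and 673.6 in mutant, 675.1 and 706.2 in rescue, and 586.9 and 503.1 in control heads. Rpt4 had 714.8 and 674.7 in mutant, 669.2 and 700.2 in rescue, and 579.0 and 517.9 in control heads. Rescue and mutant overlapped in both, with adjusted p of 0.0671 and 0.0534 for mutant against control. Rpt2, the ATPase known in yeast to control opening of the core, had 609.6 and 576.4 in mutant, 587.6 and 567.5 in rescue, and 533.3 and 484.6 in control heads (0.22 ± 0.085, adjusted p = 0.15).

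Of the 3 measured non-ATPase subunits of the base, 2 rose in mutant heads. Rpn1, the scaffold on which ubiquitin shuttle factors dock, had 474.4 and 469.6 in mutant, 488.0 and 496.6 in rescue, and 389.2 and 355.9 in control heads (mutant against control 0.34 ± 0.080, adjusted p = 0.0393). Rpn13, a ubiquitin receptor, had 808.3 and 781.5 in mutant, 818.2 and 848.6 in rescue, and 650.0 and 597.0 in control heads (0.35 ± 0.081, adjusted p = 0.038). In both genes the rescue arrays were above the mutant arrays. Rpn2, the other large scaffold, had 868.0 and 839.5 in mutant, 785.6 and 840.7 in rescue, and 746.4 and 749.5 in control heads, with a difference of 0.19 ± 0.078 that did not pass (adjusted p = 0.17).

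The lid differences in mutant heads ran from -0.12 to 0.49, with 1 of 7 past the threshold, where 6.88% of all probe sets were higher. The low end was Rpn8 alone, and the next lowest was 0.23 in Rpn7. In the alpha ring the range was 0.19 to 0.55. Rpn6, which clamps the lid to the core, had 976.3 and 989.7 in mutant, 936.4 and 1012.0 in rescue, and 738.6 and 662.4 in control heads (mutant against control 1.41-fold, 0.49 ± 0.089, adjusted p = 0.0164). Rpn11, the metalloprotease that removes ubiquitin from substrates, had 685.0 and 683.7 in mutant, 693.4 and 734.6 in rescue, and 568.5 and 578.3 in control heads (0.26 ± 0.075, adjusted p = 0.0807). Its control arrays were close and both clearly lower. Rpn8, the partner of Rpn11 in the lid, went the other way, with 471.5 and 491.3 in mutant, 522.3 and 521.5 in rescue, and 536.0 and 511.6 in control heads. Both mutant arrays were below both control arrays, the rescue arrays lay within the control range, and the difference of -0.12 ± 0.076 did not pass (adjusted p = 0.345).

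The remaining lid subunits share a structural fold and form its scaffold. Rpn5 had 1011.4 and 997.6 in mutant, 1084.7 and 1091.1 in rescue, and 870.9 and 798.4 in control heads. Rpn12 had 490.6 and 506.1 in mutant, 531.6 and 564.7 in rescue, and 437.6 and 407.6 in control heads. For both, the rescue arrays were above the mutant arrays and those above control, and both genes passed only in rescue against control. Rpn7 had 451.5 and 424.6 in mutant, 419.6 and 414.7 in rescue, and 385.2 and 361.5 in control heads. Rpn3 had 441.5 and 484.7 in mutant, 493.1 and 518.2 in rescue, and 442.9 and 330.3 in control heads, and was the only standard subunit whose mutant and control arrays overlapped.

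The comparison of rescue and control heads asks what differs from control when the microRNA is restored in insulin-producing neurons of mutant flies. None of the groups carried the rescue transgene without the mutation. In this comparison the mutation, the transgene and any other difference between the fly lines cannot be told apart. A difference from control that mutant and rescue heads share likewise cannot be told apart from a difference between lines. The standard subunits again read higher than in control heads. Of the 26, 25 had an estimate above 0, with a median log2 difference of 0.38. Over all probe sets 40.3% had an estimate above 0 (median -0.05), and over those at or above the median level 53.4% (median 0.02). In 24 of the 26 all 4 mutant and rescue arrays were above both control arrays, where 27.7% of the probe sets at or above the median level were. In 25 of the 26 both rescue arrays were above both control arrays, where 23.8% of all probe sets and 37.7% of the brighter ones were. Past the threshold 12 members rose and none fell (limma), against a background of 6.83% higher and 5.25% lower. Tested among the probe sets at or above the median level alone, 16 standard subunits rose, where 15% did. By unadjusted p under 0.05, 22 members were higher, all of them standard subunits, and 2 paralogs were lower, where 13.6% of all probe sets were higher (23.6% of the brighter ones) and 16.7% lower. The 12 were Prosalpha2, Prosalpha3, Prosalpha4, Prosbeta3, Prosbeta4, Prosbeta7, Rpn1, Rpn13, Rpn5, Rpn6, Rpn11 and Rpn12, with differences from 0.32 to 0.48. Rpn6 differed by 0.48 ± 0.089 (adjusted p = 0.0179) and Prosalpha4 by 0.41 ± 0.074 (adjusted p = 0.0162), and Rpn12 by 0.38 ± 0.081 (adjusted p = 0.0294). The control arrays enter this comparison and the previous one, so the 5 genes called in both (Prosalpha2, Prosalpha4, Rpn1, Rpn13 and Rpn6) are not independent calls.

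Here too the number of calls changed with single arrays, among the members and over all probe sets. None of the 12 passed without rescue replicate 1 (adjusted p from 0.0897 to 0.192) or without rescue replicate 2 (adjusted p from 0.125 to 0.264), where 1.88% and 1.62% of all probe sets were higher. Without control replicate 2, mutant replicate 1 or mutant replicate 2, 2 members rose, Prosalpha4 and Rpn6, where 4.71% of all probe sets were higher without control replicate 2 and 4.33% without either mutant array. Without control replicate 1, 23 rose and 3 fell, where 12.6% were higher. With an index of the 5' to 3' ratios as a covariate 1 member rose, Prosalpha4, where 3.16% of all probe sets did, and the median difference of the standard subunits was 0.23.

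The comparison of rescue and mutant heads asks what restoring the microRNA in those neurons changes, and it found no member past the threshold. No group was labelled as mutant flies with the transgene parts but without the microRNA. The microRNA, the transgene and any other difference between these lines therefore cannot be told apart here either. None of the 40 rose or fell (limma, adjusted p from 0.314 to 1), where 0.693% of all probe sets were higher and 0.709% lower. By unadjusted p under 0.05, 1 member was higher and none lower, the paralog Prosbeta4R1, against 5.4% of all probe sets higher and 8.11% lower. The median difference of the standard subunits was 0.04, with 14 estimates above and 12 below 0, where 45.3% of all probe sets were above. Their differences ran from -0.17 in Rpt5 to 0.18 in Prosbeta3. All 26 of the 95% intervals held 0. The median half-width of these intervals was 0.20, and their outermost bounds were -0.39 in Prosalpha7 and 0.46 in Rpn3. Among the standard subunits, the rescue arrays were both above the mutant arrays in 12, both below in 4 and overlapping in 10, where 21% of all probe sets had both rescue arrays above and 28.1% both below.

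**Figure D2:**
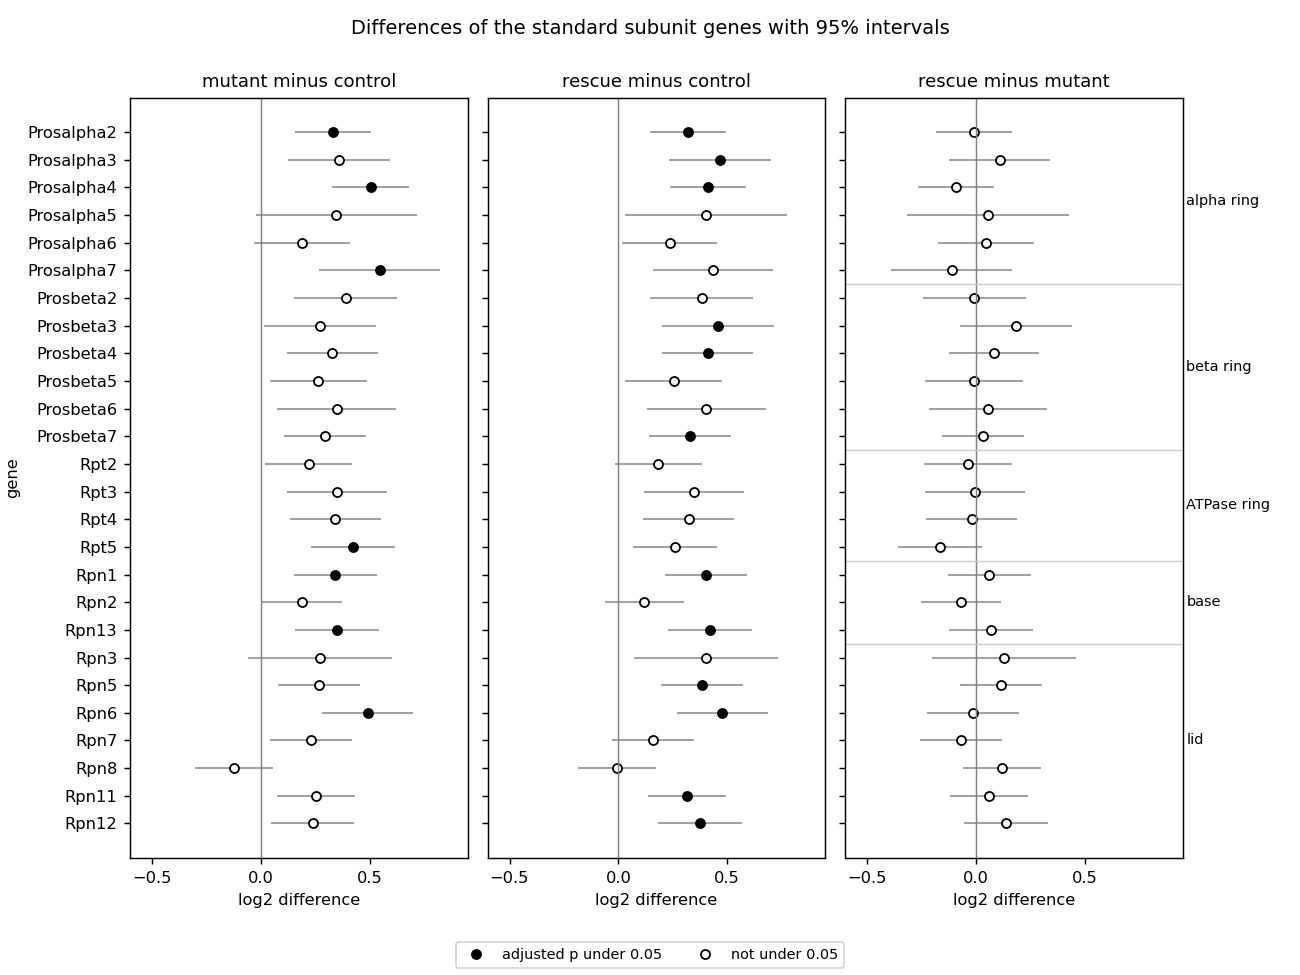
Log2 differences of the 26 standard subunit genes with 95% intervals, for mutant minus control, rescue minus control and rescue minus mutant, with filled points for an adjusted p under 0.05. Points of the first 2 panels lie to the right of 0 for 25 of the 26 genes, all but Rpn8, and in the third panel all 26 intervals hold 0.

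The core and the regulatory particle were set side by side as means of log2 intensity over their standard subunits, relative to the control mean. The core subunits stood at 0.34 and 0.35 on the mutant arrays, 0.35 and 0.40 on the rescue arrays, and 0.11 and -0.11 on the control arrays. For the regulatory subunits the values were 0.28 and 0.27 in mutant, 0.28 and 0.32 in rescue, and 0.07 and -0.07 in control. Both particles thus read higher on all 4 arrays from flies with the mutation than on either control array. The core exceeded the regulatory particle by 0.06 and 0.09 in mutant and by 0.08 and 0.08 in rescue, where the control arrays were at 0.04 and -0.04. All 4 gaps were above both control values, which lay on either side of 0. They were smaller than the distance between the control arrays within either particle, but that shift had the same direction in both particles. It is therefore not the spread of the gap, and no test was made of the gaps. Within the core, 3 of 12 subunits rose in mutant and 6 in rescue heads against control, and within the regulatory particle 4 of 14 and 6. Over all probe sets 6.88% were higher in mutant and 6.83% in rescue. Among those at or above the median level, tested alone, the shares were 14.6% and 15%. The counts of each particle also changed with single arrays, and the difference between the particles was not tested. Median differences in mutant against control were 0.34 for the core and 0.27 for the regulatory particle.

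**Figure D3:**
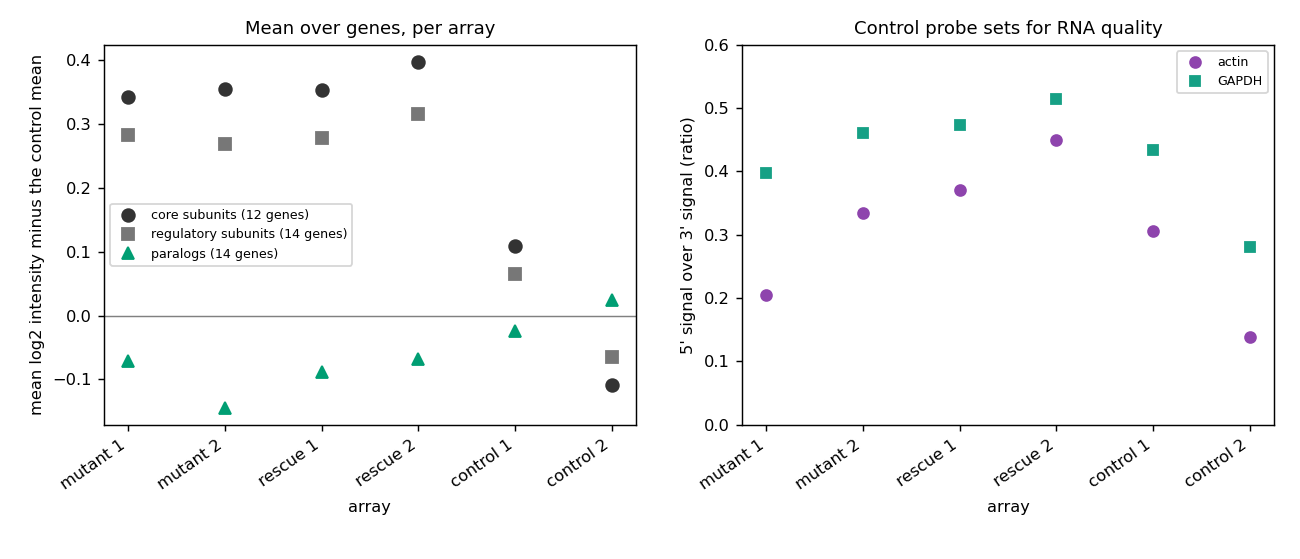
Left, the mean log2 intensity of the 12 core subunits, 14 regulatory subunits and 14 paralogs on each array, minus the control mean. Right, the 5' to 3' signal ratios of the actin and GAPDH control probe sets on the same arrays, where control 2 has the lowest ratio of both and mutant 1 lies below control 1. Mutant 2 and both rescue arrays lie above both control arrays.

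Among the control arrays the one with lower 5' to 3' ratios also had lower subunit readings, at -0.09 against 0.09 for the mean over the 26 standard subunits. Mutant replicate 1 had lower ratios than control replicate 1 for both actin and GAPDH. Its mean over the standard subunits was 0.31, above the 0.09 of that control array. Mutant replicate 2 and both rescue arrays had higher ratios than both control arrays for actin and GAPDH. Rescue replicate 2 had the highest ratios and the highest mean over the standard subunits, 0.35. With an index of both ratios as a covariate, 8 members rose and 2 fell in mutant against control heads (8.39% of all probe sets were higher), and the median of the standard subunits was 0.27. In rescue against control the same covariate left 1 member higher (3.16% of all probe sets were higher), with a median of 0.23. How much of the difference goes with RNA quality was not tested.

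The paralogs were read apart from the standard subunits. In Drosophila several of them, such as Prosalpha3T and Prosalpha6T, are known as genes of the male germline, which is not part of a head. They gave intensities from 10.1 to 63.7, and a pair of dim control probe sets gave 8.4 to 9.6 and 13 to 15.7, so some of the 14 may lie at the floor of the array, where changes are understated. The list of 9 male germline markers (among them dj, Mst87F and betaTub85D) summed to 158.9 and 153.7 in mutant, 148.1 and 154.4 in rescue, and 154.1 and 162.5 in control heads, and none of the 9 passed in any comparison.

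No paralog rose against control in either mutant or rescue heads (limma), also by unadjusted p, and their median difference was -0.11 in mutant and -0.03 in rescue. Prosalpha4T1 had 20.1 and 16.8 in mutant, 18.8 and 20.2 in rescue, and 23.8 and 26.6 in control heads. It fell by 0.45 on the log2 scale in mutant heads (SE 0.11, adjusted p = 0.047), at readings near the dim control probe sets. This call was lost when any array other than control replicate 1 was left out (adjusted p from 0.0717 to 0.243). Prosbeta4R1 had 12.3 and 11.9 in mutant, 14.8 and 14.6 in rescue, and 16.3 and 13.4 in control heads (rescue against mutant 0.28 ± 0.10, adjusted p = 0.314). Rpn13R, a relative of the ubiquitin receptor Rpn13, had 56.9 and 42.7 in mutant, 41.8 and 43.6 in rescue, and 53.2 and 63.7 in control heads, with a rescue difference from control of -0.45 ± 0.15 (adjusted p = 0.101). Prosalpha3T had 21.3 and 20.3 in mutant, 18.6 and 19.4 in rescue, and 18.8 and 19.1 in control heads, and its mutant arrays were above the control arrays by a small margin. The paralog arrays of mutant and control overlapped in 6 genes, were higher in mutant in 2 and lower in 6, where 23.9% of all probe sets were higher and 30.9% lower.

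**Figure D4:**
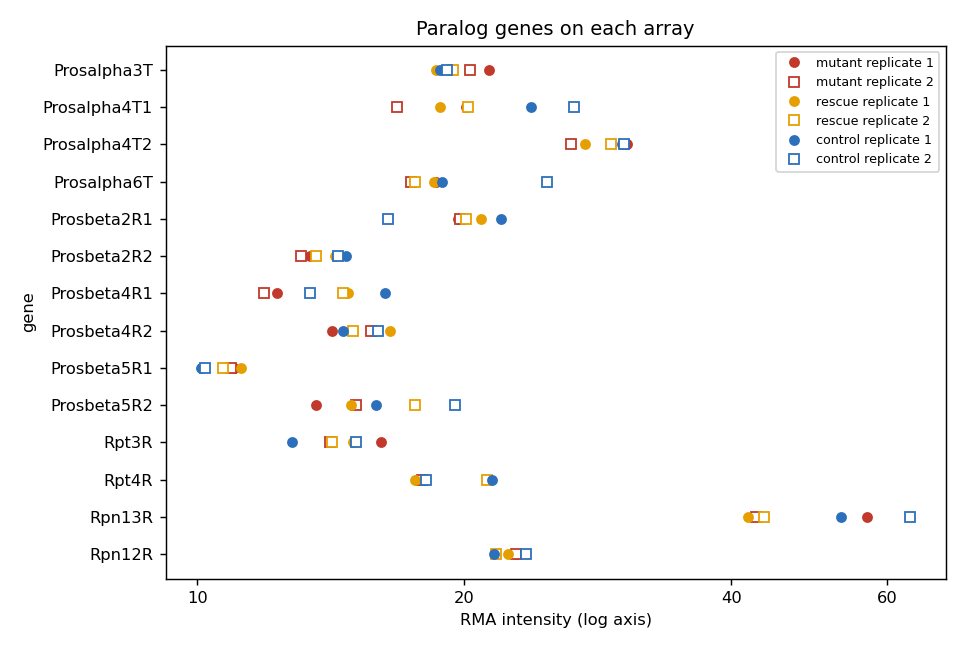
Intensity of the 14 paralog genes on each array, on a log axis. Mutant and control points overlap for 6 of the 14 genes, and Prosalpha4T1, Prosalpha6T and Prosbeta2R2 are lower on both mutant and both rescue arrays than on both control arrays.

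Genes that work with the proteasome were read in lists, which were chosen with earlier results of these data known. Of 11 assembly factors and associated proteins, 1 rose in mutant heads, none fell and 10 did not pass (median 0.16). As for the members, 6.88% of all probe sets and 14.6% of those at or above the median level were higher in mutant, and 6.83% and 15% in rescue, and the small counts of this and the following lists are to be read beside these shares. Txl, a thioredoxin-like protein bound to the regulatory particle, had 847.6 and 794.1 in mutant, 744.6 and 776.4 in rescue, and 635.5 and 613.7 in control heads (mutant against control 0.39, adjusted p = 0.0235). The assembly chaperone gene Pomp had a mutant difference of 0.16 (adjusted p = 0.297), and REG, an alternative cap of the core, of -0.09 (adjusted p = 0.505). None of this list passed in rescue against control or against mutant (limma), and 3 were higher by unadjusted p under 0.05 in rescue against control. Sem1, the smallest lid subunit, whose symbol lies outside the membership rule, had 600.9 and 535.3 in mutant, 568.8 and 565.8 in rescue, and 498.5 and 479.6 in control heads (0.21 in mutant, adjusted p = 0.166).

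Upstream of the proteasome, 1 of 9 genes of ubiquitin supply and conjugation rose in mutant heads, a share near those over all probe sets, and 2 of 9 rose in rescue heads against control. The conjugating enzyme gene Ubc7 had 808.5 and 825.2 in mutant, 878.0 and 808.6 in rescue, and 652.0 and 586.4 in control heads (0.40 and adjusted p = 0.033 in mutant, 0.45 and adjusted p = 0.0223 in rescue). Ubc6, another conjugating enzyme gene, had 686.8 and 756.7 in mutant, 843.8 and 893.8 in rescue, and 584.7 and 444.1 in control heads, and rose in rescue (0.77, adjusted p = 0.0149). The polyubiquitin gene Ubi-p63E had differences of -0.13 in mutant and -0.19 in rescue that did not pass (adjusted p = 0.339 and 0.153). Among 7 genes of shuttle factors and the TER94 unfoldase, which hand ubiquitinated proteins to the proteasome, 2 rose in mutant heads. Npl4, a cofactor of TER94, had 635.7 and 628.3 in mutant, 495.1 and 449.5 in rescue, and 414.8 and 429.1 in control heads (mutant against control 0.58, adjusted p = 0.00655). Its rescue arrays were lower than the mutant arrays and above control, a difference of -0.42 from mutant that did not pass (adjusted p = 0.0687). The shuttle factor gene rngo had 406.7 and 377.0 in mutant, 331.2 and 320.3 in rescue, and 264.3 and 248.4 in control heads (0.61, adjusted p = 0.00543 in mutant; 0.35, adjusted p = 0.0395 in rescue).

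Among 6 regulators of proteasome gene transcription, 2 rose in mutant and in rescue against control. They were rngo, whose relative in worms and mammals is known to process a factor that raises proteasome gene transcription, and maf-S. The gene rngo is also counted among the shuttle factors above. The small Maf protein gene maf-S had 1158.9 and 1085.5 in mutant, 1014.6 and 966.6 in rescue, and 804.4 and 731.9 in control heads (0.55, adjusted p = 0.01 in mutant; 0.37, adjusted p = 0.0381 in rescue). Its partner cnc, a transcription factor of the oxidative stress response, had 1452.0 and 1336.7 in mutant, 1315.8 and 1332.1 in rescue, and 1296.9 and 1548.3 in control heads. For cnc the mutant and the rescue arrays lay within the range of the control arrays, and the rescue arrays were below the mutant arrays (mutant against control -0.02, adjusted p = 0.905). Keap1, which restrains cnc, had a mutant difference of 0.20 (adjusted p = 0.184). In rescue against mutant all 6 regulators had both rescue arrays below both mutant arrays (median -0.12), where 28.1% of all probe sets did. None of the 6 passed in that comparison (limma, lowest adjusted p = 0.217).

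Complexes related to the lid in structure were read for comparison. Of 9 measured subunits of the COP9 signalosome, 1 rose in mutant heads, CSN4 (0.32, adjusted p = 0.0473), with a list median of 0.21. Of 16 subunits of the translation factor eIF3 none rose or fell (limma) and the median was -0.0038, with 8 estimates above and 8 below 0. This list includes the dim eIF3d2, eIF3f2 and eIF3g2, which had differences of -0.37, -0.13 and -0.17. The median of the standard proteasome subunits leaves the dim paralogs out, so the 2 medians are not of like sets. The lists differ in size and in their probe sets, and the differences between them and the proteasome genes were not tested.

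The heads hold several cell types, and in bulk RNA fewer cells of a type and less RNA per cell cannot be told apart. Of 4 measured neuron markers none passed in either comparison with control (limma), with summed levels of 3877.8 and 4315.1 in mutant, 4245.9 and 4265.8 in rescue, and 4209.4 and 3746.7 in control heads. These sums hide differences in both directions in rescue against control. There brp was at -0.43 (adjusted p = 0.0679), elav at -0.42 (adjusted p = 0.188), nSyb at 0.48 (adjusted p = 0.134) and Syn at 0.03 (adjusted p = 0.839). The 3 measured glia markers summed to 1837.1 and 2038.8 in mutant, 2064.9 and 2262.3 in rescue, and 1697.6 and 1612.6 in control heads, and 1 of them, moody, rose in mutant and in rescue. Another, repo, had 680.1 and 680.8 in mutant, 704.5 and 709.3 in rescue, and 774.2 and 859.4 in control heads, so that it read lower in both groups, without passing (-0.26, adjusted p = 0.0958 in mutant; -0.21, adjusted p = 0.147 in rescue). The 5 hemocyte markers summed to 629.2 and 1062.1 in mutant, 1554.3 and 1578.2 in rescue, and 1205.6 and 591.2 in control heads. These sums lay far apart between the mutant arrays and between the control arrays, and close together between the rescue arrays. NimC1 rose in rescue against control (2.56, adjusted p = 0.00848). All 5 hemocyte markers had both rescue arrays above both mutant arrays (median 1.12), where 21% of all probe sets did. None of the 5 passed in that comparison (limma, adjusted p from 0.23 to 0.623). By unadjusted p under 0.05, 4 were higher, where 5.4% of all probe sets were. The 2 measured photoreceptor markers summed to 12164 and 11959 in mutant, 9335.3 and 9099.7 in rescue, and 12580 and 13742 in control heads, and both fell in rescue against control (adjusted p from 0.00905 to 0.0118). In rescue against mutant chp fell (limma, -0.49, adjusted p = 0.0457), and trp did not pass (-0.31, adjusted p = 0.141). The 4 fat body markers summed to 19100 and 18137 in mutant, 22816 and 23370 in rescue, and 22909 and 21952 in control heads. Of these, Lsp2 fell in mutant against control heads (limma, -0.76, adjusted p = 0.00215) and rose in rescue against mutant (0.67, adjusted p = 0.0129). In rescue against control its difference was -0.09 (adjusted p = 0.499). Mtp rose in mutant and in rescue against control (adjusted p = 0.00108 and 0.000856). The 2 muscle markers did not pass in any comparison (limma), with sums of 473.7 and 474.6 in mutant, 506.9 and 503.9 in rescue, and 488 and 614.9 in control heads. The part of these cell types in the subunit differences was not tested.

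**Figure D5:**
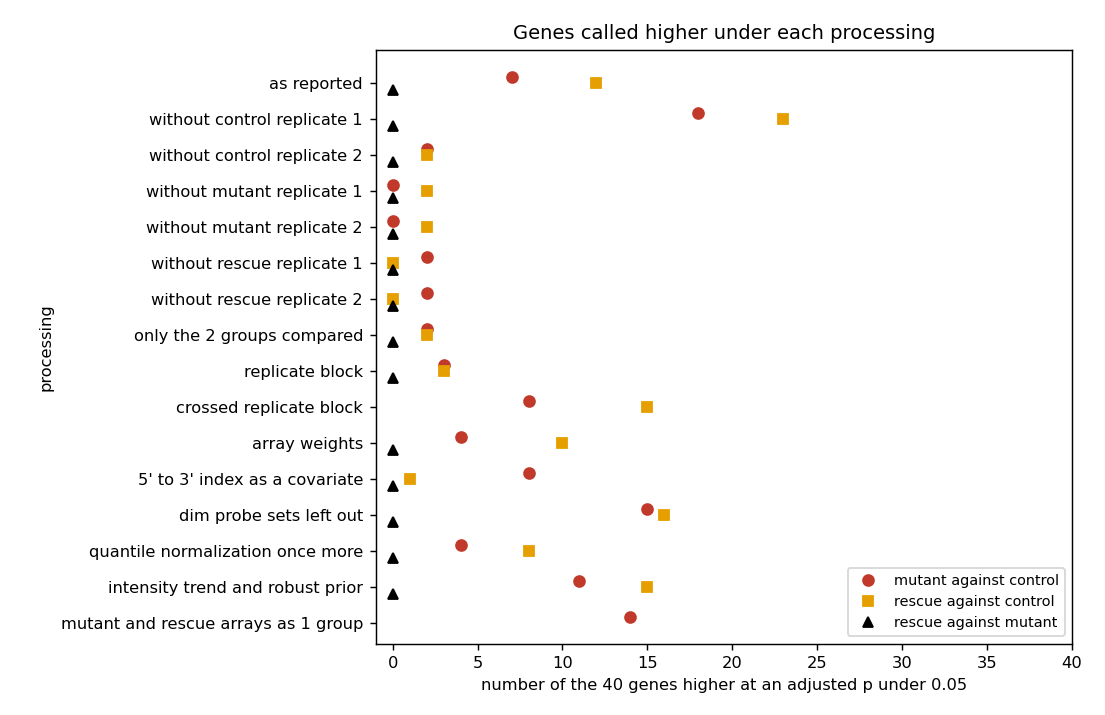
Number of the 40 proteasome genes higher at an adjusted p under 0.05 in each comparison, as reported and under each alternative processing. The count for mutant against control runs from 0 to 18 and for rescue against control from 0 to 23, while rescue against mutant stays at 0 wherever it was computed.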

How the data were processed

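Head RNA was isolated by Trizol and biotinylated for hybridisation, per the labels' protocols. The authors deposited 1 RMA intensity per probe set and array on a linear scale, per the submitters' processing notes, and the RMA version is not stated there. Tests used 18769 of the 18952 probe sets, after removal of 183 array controls. Gene names came from the platform annotation, and all 40 member symbols matched the gene table of Release 6 plus ISO1 MT. 5 member probe sets (Prosbeta5, Prosbeta7, Rpn6, Rpn13 and Rpn12R) carry the suffix that marks probes shared by several transcripts, so their readings may be mixed.

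The members and lists were chosen with earlier results of these data known. Log2 intensities were fitted with limma 3.58.1 in R 4.3.3 (lmFit, eBayes, 3 groups, 6 arrays). The procedure was tested on simulated data with a common spread and with added differences larger than those reported for the members. Recovery of differences as small as theirs was not tested. Every member is counted, and per-array values are given for members past the threshold in any comparison, for the member with the largest difference and the brightest and dimmest subunit of each role, and for further standard subunits. Genes of other lists are named where they passed, up to 4 per list, and others were chosen after their values were seen. Paralogs are symbols ending in T or R, and Rpn1, Rpn2 and Rpn13 count as base. With 2 arrays against 2 the smallest two-sided exact permutation p is 0.333, so none is given. Precision is limited by the number of arrays. The 5' to 3' index is the mean log2 ratio of the actin and GAPDH control probe sets. Alternatives left out each array, used only the groups compared, or changed the block, weights, covariate, filter, normalization or prior.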

Additional observations from a re-analysis of the deposited data

How the results depend on the processing

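Proteasome genes higher in mutant against control heads numbered 7 as reported and from 0 to 18 when each array was left out in turn. The count was 2 with only the 2 groups compared, 3 with a replicate block, 4 with array weights or quantile normalization once more, 15 with dim probe sets left out, 11 with an intensity trend and robust prior, and 14 with mutant and rescue arrays as 1 group, an alternative chosen after seeing the data. Genes lower numbered 1 as reported, from 0 to 3 with 1 array left out, 2 with the RNA quality index as covariate, and 0 with array weights, only the groups compared, repeated quantile normalization or a replicate block. It was also 0 with dim probe sets left out, a filter that removed all 14 paralogs and with them the only gene called lower. In rescue against control heads 12 were higher as reported, from 0 to 23 with 1 array left out, 2 with only the 2 groups compared, 3 with a replicate block and 1 with that covariate, and genes lower numbered 0 to 3 with 1 array left out. No member passed in rescue against mutant under any of the alternatives computed for it. No share over all probe sets was computed for fits with a block, array weights, repeated normalization, a changed prior or the compared groups alone. Whether the counts of those fits moved with the whole array is therefore not known. The median difference of the standard subunits stayed above 0 in both comparisons with control, at 0.24 to 0.42 in mutant and 0.27 to 0.44 in rescue with 1 array left out. With the covariate it was 0.23 in rescue against control and -0.059 in rescue against mutant.

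Deviations of same-numbered arrays correlated at -0.26 between mutant and control, -0.19 between rescue and control and 0.0036 between rescue and mutant, so the numbers were not taken to pair the arrays. With the control numbers exchanged, chosen after seeing the data, 8 genes were higher in mutant and 15 in rescue against control. The share over all probe sets was not computed for that fit. Over single members and alternatives, no difference past the threshold changed sign. Each pair of 1 member and 1 alternative was counted once, so these are not numbers of genes. In mutant against control 54 pairs lost a call, 37 gained one and 495 stayed the same. In rescue against control 90 pairs lost a call, 24 gained one and 432 stayed the same. The cause was not tested. Each member has 1 probe set with 1 symbol, so using all probe sets of a member gives the reported values. Where 1 array was left out, the lone array of its group was assumed to vary like the other groups. Background levels per probe set were not used here, so whether the paralogs lie above background is unknown.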

Other observations

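Other protein quality control genes were read in lists, and their differences from the proteasome subunits were not tested. Of 8 measured subunits of the chaperonin CCT, which folds actin and tubulin, 2 rose in mutant against control heads, where 6.88% of all probe sets did, and none passed in rescue against control (limma, with the lowest adjusted p at 0.0744). CCT6 had 449.7 and 434.4 in mutant, 399.8 and 402.3 in rescue, and 347.0 and 320.0 in control heads (mutant against control 0.41, adjusted p = 0.0213). CCT5 had 495.5 and 496.2 in mutant, 430.6 and 419.2 in rescue, and 400.4 and 373.8 in control heads (0.36, adjusted p = 0.0301). In both genes the rescue arrays lay between those of the other groups. Whether the rescue differed from the mutant was tested and did not pass (-0.14, adjusted p = 0.522 for CCT6, and -0.22, adjusted p = 0.271 for CCT5). Of 18 listed heat shock chaperone genes 7 were measured here, without the Hsp70 genes, Hsp83, Hsp22 and Hsp23. None of the 7 passed in mutant against control heads (limma). The control arrays lay far apart for Hsp26 (745.4 and 125.8) and Hsp68 (307.0 and 153.2), so that a difference there was hard to detect. In rescue heads 1 gene fell. This was stv, a co-chaperone gene of chaperone-assisted autophagy, at 1462.9 and 1605.8 in mutant, 1014.1 and 977.7 in rescue, and 1413.9 and 1264.7 in control heads (limma, rescue against mutant -0.62, adjusted p = 0.0294; rescue against control -0.43, adjusted p = 0.0296). Single arrays were not left out for these lists.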
